A study of Mus musculus with 2 samples.

Results

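Cartilage and bone genes other than the collagens were compared between 2 mouse teratoma libraries. They comprised 35 genes chosen by name, each matched by its symbol to 1 row of the deposited gene table, out of 45777 genes in all. By role they fell into 11 cartilage matrix genes, 4 matrix genes shared with other connective tissues, 4 genes of hypertrophic cartilage, 3 osteoblast transcription factors, 6 genes of osteoblast matrix and mineral, 4 osteocyte and phosphate genes, and 3 genes of resorption. The hypertrophic, osteoblast and osteocyte genes, 17 in all, were joined as hypertrophic and bone genes for a contrast with the 11 cartilage matrix genes.

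One teratoma came from E14 mouse embryonic stem cells, which carried wild-type Sox2. The other came from E14-Sox2TA/WT cells, an E14 derivative in which 1 Sox2 allele encodes alanine instead of threonine at residue T258 (T258A). Edited cells were grown from single sorted cells, so a difference between the libraries may also be one between clones. The paper also kept the edited clones with added inhibitors that were removed before use, which it does not name for E14. Such a difference in culture cannot be told apart from the genotype here. Cells were injected in Matrigel under the skin of BALB/c-nu mice, whose own connective tissue and blood cells are also murine, so that reads of host and graft cannot be told apart. The paper injected more than 1 mouse per group and harvested both groups at the same time after injection. Ages of the mice were not given in the sources used here. Each group had 1 library, and whether a library held 1 tumour or several was not given either. There was therefore no replicate check and no test of the mutation. Every interval below is a 95% Clopper-Pearson interval of the read counts, scaled to TPM (a transcript level per length, set to the same total in each library), and it covers counting error between these 2 libraries only.

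Cartilage is laid down by chondrocytes, whose matrix is built of type II collagen, the large proteoglycan aggrecan and the proteins that link them. In endochondral ossification chondrocytes enlarge to hypertrophy, change their matrix and are replaced by osteoblasts, which secrete and mineralise bone, while osteoclasts resorb it. Teratomas form such tissues side by side with neural and epithelial ones, so that a level in bulk RNA depends on both the share of a tissue and its expression. Fewer cells of a type and less RNA per cell cannot be told apart here.

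Counts summed to 50529171 reads for E14 and to 49030281 reads for E14-Sox2TA/WT. Sox2 itself was at 245.7 TPM in E14 and 130.1 TPM in E14-Sox2TA/WT. This level does not check the genotype, because the change is a point mutation. Of all genes, 540 had 0 reads in E14 but at least 30 in E14-Sox2TA/WT, against 37 the other way round. Pluripotency genes were higher in E14-Sox2TA/WT (10 of 10, summed TPM 85.5 against 1993), trophoblast genes likewise (7 of 7, 0.340 against 28.8, with 6 at 0 reads in E14), and neural genes were lower (10 of 10, 5035 against 1146). By chromosome, the median log2 ratio of TPM with 1 added, over genes at 1 TPM or more, was -2.94 on Y (8 genes). It was -0.48 on chromosome 8, 0.35 on chromosome 15 and 0.93 on the mitochondrial genome. The other chromosomes lay between -0.17 and 0.20. The part of all these differences in the values below was not tested.

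Of the 35 genes, 28 were higher in the E14-Sox2TA/WT library than in the E14 library beyond counting error, 1 was lower and 6 were not separated. Counting error alone is a low bar in libraries of this depth, since 41.0% of the 23711 genes with at least 10 reads were higher by it and 40.1% were lower. With the whole interval required to lie beyond 2-fold, 24 members were higher and 1 was lower, where 18.0% and 13.6% of those genes were. A further rule asked for a ratio above 2 with at least 10 TPM in at least 1 library. By it 8 members were higher and 0 lower, with 10.8% and 18.7% of 11578 genes called in each direction. Those 8 were Mgp, Pth1r, Ibsp, Spp1, Alpl, Mmp9, Acp5 and Ctsk. The thresholds of this rule are those stated in the paper, but the calls made here do not reproduce its gene counts in either direction. They are therefore not the paper's own list. Most members could not be called by that rule, because 27 were under 10 TPM in both libraries and 8 were under 1 TPM in both. Ibsp, Mmp9 and Acp5 reached 10 TPM only in E14-Sox2TA/WT.

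**Figure D1:**
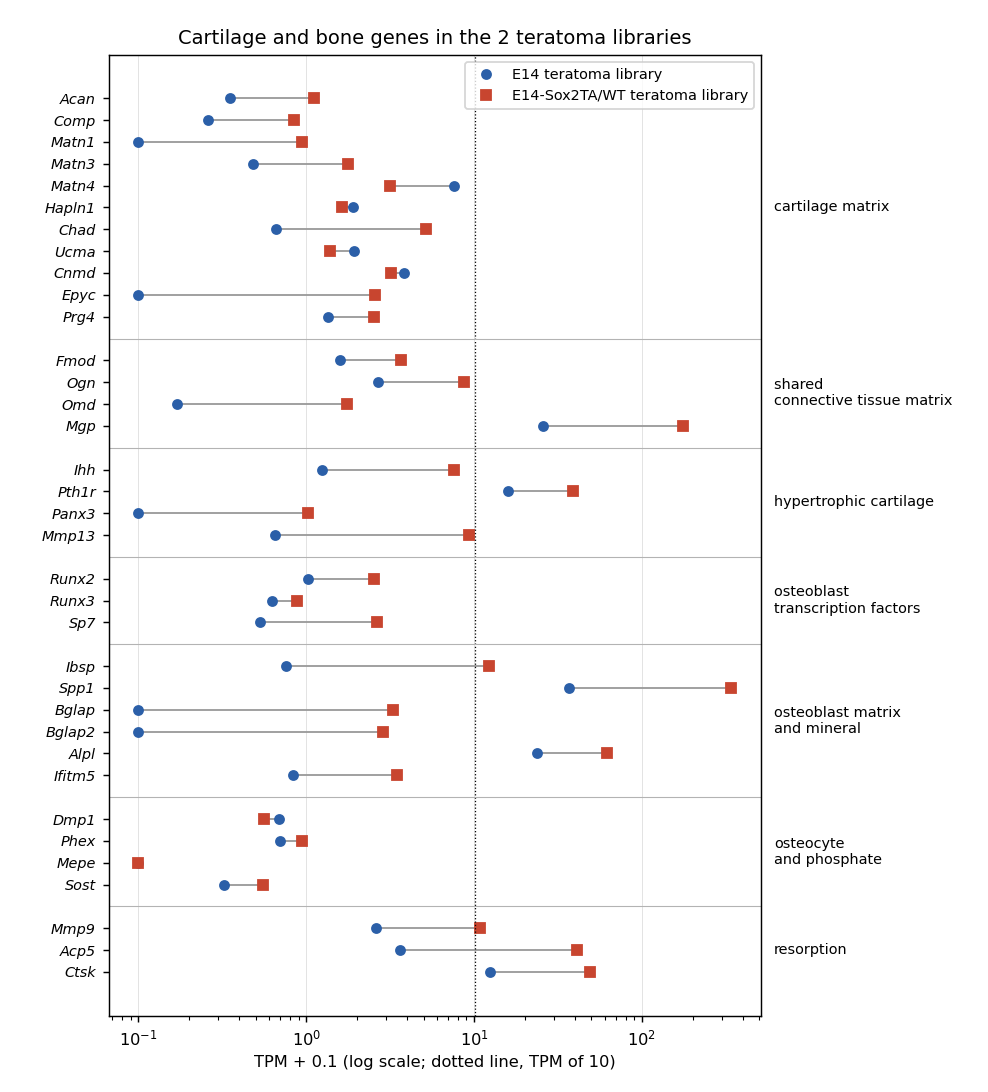
Level of each of the 35 genes in the E14 and E14-Sox2TA/WT teratoma libraries, as TPM with 0.1 added on a log axis, grouped by role, with 1 point per gene and library. All 11 cartilage matrix genes sit below 10 TPM in both libraries, whereas Spp1 and Mgp reach 340 and 176 TPM in E14-Sox2TA/WT.

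The cartilage matrix genes were all low, none reaching 10 TPM in either library, and they did not move in 1 direction. Of the 11 genes, 7 were higher in E14-Sox2TA/WT beyond counting error, 1 was lower and 3 were not separated. Among all genes with at least 10 reads, 41.0% were higher and 40.1% lower by that bar. Acan, which encodes aggrecan, had 0.252 TPM in E14 and 1.01 TPM in E14-Sox2TA/WT, a 3.99-fold difference (2.89 to 5.60). Comp, the cartilage oligomeric matrix protein also made in tendon, had 0.159 and 0.742 TPM, 4.66-fold apart (2.39 to 9.93) on 11 and 49 reads. Both were thus higher in E14-Sox2TA/WT, at levels of about 1 TPM or less, and Comp rested on few reads in E14.

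The matrilins, adaptor proteins that join collagen fibrils to proteoglycans, were split. Matn1, the most cartilage-restricted of them, had 0 reads in E14 and 46 reads (0.845 TPM) in E14-Sox2TA/WT, at least 13.7-fold higher when E14 is set to a floor of 3 reads. Matn3 had 0.382 and 1.67 TPM, 4.36-fold higher (2.89 to 6.81) in E14-Sox2TA/WT. Matn4, which is also made outside cartilage, had 7.48 TPM in E14 and 3.06 TPM in E14-Sox2TA/WT, 2.45-fold lower. Matn4 was the only member lower beyond counting error, and in E14 it was also the most abundant cartilage matrix gene.

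Chad encodes chondroadherin, a leucine-rich protein that binds chondrocytes to their matrix. It had 0.561 TPM in E14 and 5.09 TPM in E14-Sox2TA/WT, 9.08-fold higher (5.90 to 14.6). Epyc, the small proteoglycan epiphycan of growth-plate cartilage, had 0 and 116 reads (2.48 TPM in E14-Sox2TA/WT), at least 34.6-fold higher. Prg4, the lubricin of joint surfaces, had 1.24 and 2.45 TPM, 1.97-fold higher (1.59 to 2.45). With Matn1, Chad and Epyc thus held the largest differences among the cartilage matrix genes.

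Hapln1, the link protein that fixes aggrecan to hyaluronan, had 1.80 TPM in E14 and 1.52 TPM in E14-Sox2TA/WT, a ratio of 0.849 (0.699 to 1.03). Cnmd, the anti-angiogenic chondromodulin, had 3.74 and 3.09 TPM (0.828, 0.642 to 1.07). Ucma, a small secreted protein of resting chondrocytes, had 1.83 and 1.29 TPM (0.704, 0.423 to 1.17). These 3 genes were not separated between the libraries. Hapln1 changed sign, from -0.15 to 0.21 on the log2 scale, when each ratio was set against genes of like transcript length.

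Summed over the 11 genes, cartilage matrix had 17.4 TPM in E14 and 23.2 TPM in E14-Sox2TA/WT, and without Matn4 the sums were 9.96 and 20.2 TPM. Col2a1, the type II collagen gene taken as a reference for cartilage, had 58.0 and 74.8 TPM (1.29-fold). The other collagens of cartilage did not all follow it, since Col9a3 was at 19.9 and 12.4 TPM and Col11a1 at 18.1 and 12.5 TPM. Acan was 0.435% of Col2a1 in E14 and 1.34% in E14-Sox2TA/WT. Aggrecan was thus low relative to type II collagen in both libraries. Among 12 regulators of chondrocytes 8 were lower in E14-Sox2TA/WT and 3 higher beyond counting error, where 40.1% and 41.0% of all genes were. Sox9, the transcription factor that sets the chondrocyte fate and is also made in neural tissue and gut, was 2.61-fold lower (44.1 and 16.9 TPM). Sox9 and the cartilage matrix genes therefore did not move together in these libraries. Neural genes were lower in E14-Sox2TA/WT too, and the part of neural tissue in the levels of these regulators was not tested.

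The 4 matrix genes that cartilage shares with tendon, vessel wall and bone were all higher in E14-Sox2TA/WT. Mgp, the matrix Gla protein that inhibits calcification of cartilage and arteries, had 25.6 TPM in E14 and 176 TPM in E14-Sox2TA/WT, 6.87-fold higher (6.18 to 7.67). Fmod, the collagen-binding fibromodulin, had 1.49 and 3.59 TPM, 2.41-fold higher (1.94 to 3.02). Ogn, osteoglycin, had 2.59 and 8.66 TPM, 3.34-fold higher (2.80 to 3.99). Mgp alone made up most of the summed level of these genes, which was 29.8 TPM in E14 and 190.1 TPM in E14-Sox2TA/WT. Omd, the osteomodulin of mineralised tissue, had 0.0690 and 1.66 TPM, 24.1-fold higher (9.05 to 90.4), on 4 reads in E14.

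Fibroblast and tendon genes were also higher in E14-Sox2TA/WT (10 of 10, summed TPM 455 against 956), while smooth muscle genes had 4 of 6 higher and 1 lower (91.9 against 144). Dcn, the decorin of fibroblasts, was 1.65-fold higher (232 and 382 TPM), and Ogn was 1.12% of Dcn in E14 and 2.27% in E14-Sox2TA/WT. Other genes of that list were further apart, with Aspn 4.97-fold, Lum 3.72-fold and Tnmd, the tenomodulin of tendon, 7.99-fold higher. The folds of Mgp and Ogn thus lay within the range of the fibroblast and tendon genes. The part of other connective tissue in these values was not tested.

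The 4 genes of hypertrophic cartilage were all higher in E14-Sox2TA/WT with intervals beyond 2-fold. Ihh, the hedgehog ligand made by prehypertrophic chondrocytes and also by gut epithelium, had 1.14 TPM in E14 and 7.53 TPM in E14-Sox2TA/WT, 6.62-fold higher (5.10 to 8.72). Pth1r, the receptor for parathyroid hormone and its related peptide, had 15.9 and 38.8 TPM, 2.43-fold higher (2.25 to 2.63). Pth1r was the most abundant of the 4 in both libraries. Panx3, a channel of hypertrophic chondrocytes and osteoblasts, had 0 and 63 reads (0.923 TPM in E14-Sox2TA/WT), at least 18.8-fold higher. Mmp13, the collagenase that degrades type II collagen at the hypertrophic front, had 0.556 and 9.17 TPM, 16.5-fold higher (11.8 to 23.8). Col10a1, the collagen by which hypertrophic chondrocytes are defined, had 0.133 and 3.87 TPM, and it was 0.229% of Col2a1 in E14 and 5.17% in E14-Sox2TA/WT. The hypertrophic collagen was thus low beside type II collagen in both libraries, and higher in E14-Sox2TA/WT.

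**Figure D2:**
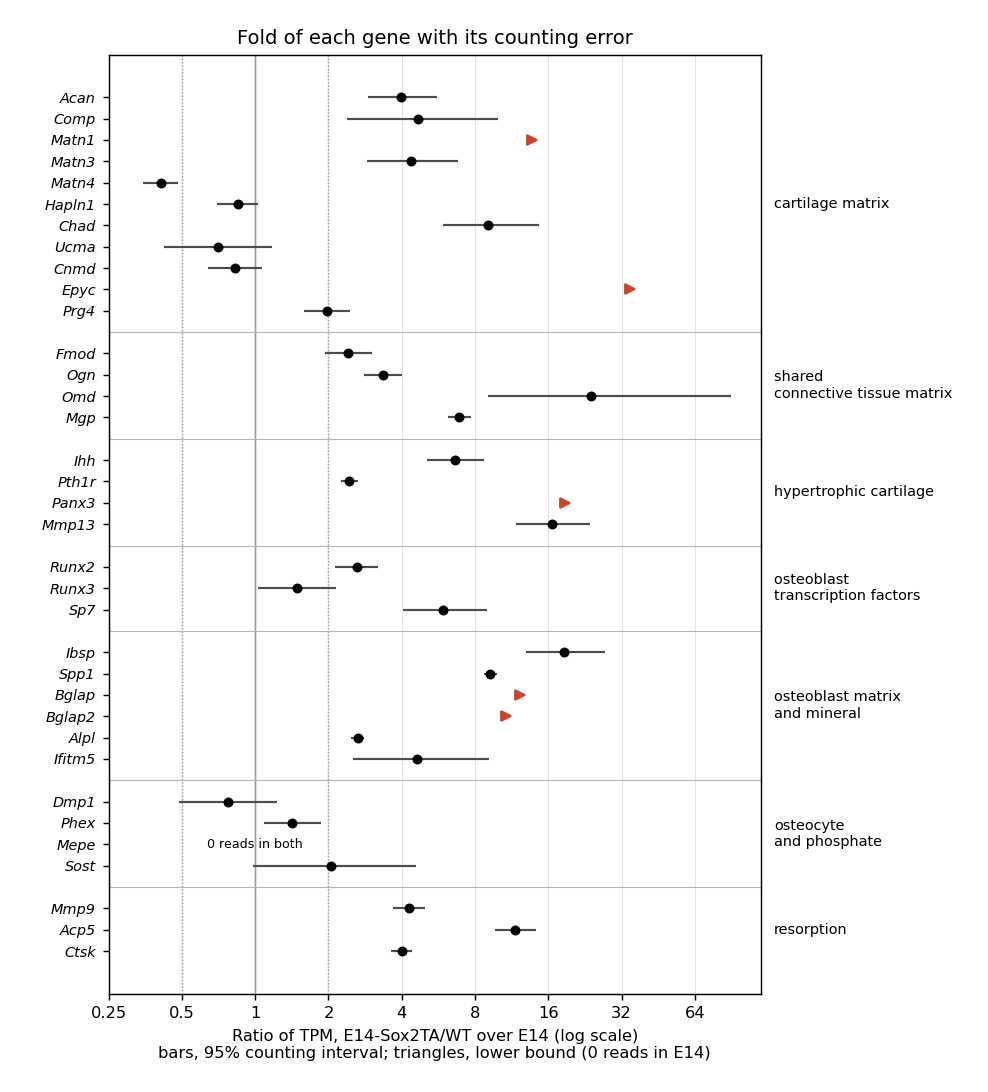
Ratio of TPM, E14-Sox2TA/WT over E14, on a log axis for each member, with bars for the 95% counting interval and lower bounds for genes at 0 reads in E14. Matn4 is the only gene whose interval lies wholly below 1, and Omd, Ibsp and Mmp13 have the largest ratios among genes with reads in both libraries.

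Osteoblasts depend on Runx2 and on Sp7 (osterix), which acts downstream of it. Runx2 had 0.927 TPM in E14 and 2.42 TPM in E14-Sox2TA/WT, 2.61-fold higher (2.14 to 3.21). Sp7 had 0.428 and 2.53 TPM, 5.92-fold higher (4.04 to 8.95). Runx3, a relative active in chondrocytes and lymphocytes, had 0.523 and 0.775 TPM, 1.48-fold higher (1.03 to 2.16). All 3 were higher beyond counting error, at levels under 3 TPM. Relative to Sox9, Sp7 was 0.970% in E14 and 15.0% in E14-Sox2TA/WT. Both terms of this ratio differed between the libraries.

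Other regulators of osteoblasts had 8 of 12 genes higher and 4 lower beyond counting error, where 41.0% and 40.1% of all genes were. Atf4, a stress-response factor used by osteoblasts, had 154.5 and 291.8 TPM. Dlx5 and Dlx6, homeobox genes of bone and of forebrain neurons, were lower in E14-Sox2TA/WT, Dlx5 at 41.6 and 1.88 TPM and Dlx6 at 17.8 and 0.691 TPM. The neural genes were lower in the same library.

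The 6 genes of osteoblast matrix and mineral were all higher in E14-Sox2TA/WT, again with intervals beyond 2-fold. Spp1, the acidic phosphoprotein osteopontin that bone shares with macrophages and many epithelia, had 36.7 TPM in E14 and 340 TPM in E14-Sox2TA/WT, 9.25-fold higher (8.73 to 9.81). Ibsp, the integrin-binding bone sialoprotein, had 0.659 and 12.2 TPM, 18.5-fold higher (12.9 to 27.5). Alpl, the alkaline phosphatase needed for mineralisation, had 23.6 and 62.2 TPM, 2.64-fold higher (2.48 to 2.80). Alpl is also a marker of pluripotent stem cells, and it was 124% of Pou5f1 in E14 and 20.4% in E14-Sox2TA/WT. Ifitm5, a membrane protein of mineralising osteoblasts, had 0.730 and 3.37 TPM, 4.62-fold higher (2.52 to 9.14) on 13 and 65 reads. Of 12 macrophage genes, 11 were higher beyond counting error and 1 was lower, with Lyz2 2.07-fold and Mrc1 2.46-fold higher. The part of macrophages in the level of Spp1 was not tested.

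Osteocalcin, the Gla protein secreted by mature osteoblasts, is encoded by neighbouring near-identical copies on chromosome 3, so the split of reads among them is uncertain. Bglap had 0 reads in E14 and 41 reads (3.18 TPM) in E14-Sox2TA/WT, at least 12.2-fold higher. Bglap2 had 0 and 36 reads (2.76 TPM), at least 10.7-fold higher. Together with Bglap3, the copy that is not a member, the 3 copies had 0 and 223 reads, or 0 and 12.7 TPM. Osteocalcin was thus seen only in the E14-Sox2TA/WT library at this depth.

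Upstream sequence is shown for the hypertrophic and bone genes with large differences, with any RUNX motif in capitals. Each window holds the 250 bases before a RefSeq gene start (GRCm38.p6, 5′ to 3′ on the strand of the gene). The motif was TGTGGT or TGCGGT on either strand, so that it also reads ACCACA or ACCGCA.
Mmp13 (chr9:7272264-7272513, plus strand): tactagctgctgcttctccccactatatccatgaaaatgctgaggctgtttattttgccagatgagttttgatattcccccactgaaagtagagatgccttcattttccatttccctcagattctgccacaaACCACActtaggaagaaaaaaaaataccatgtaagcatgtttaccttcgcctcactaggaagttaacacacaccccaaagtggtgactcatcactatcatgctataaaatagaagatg
Spp1 (chr5:104434861-104435110, plus strand, the first of its annotated starts): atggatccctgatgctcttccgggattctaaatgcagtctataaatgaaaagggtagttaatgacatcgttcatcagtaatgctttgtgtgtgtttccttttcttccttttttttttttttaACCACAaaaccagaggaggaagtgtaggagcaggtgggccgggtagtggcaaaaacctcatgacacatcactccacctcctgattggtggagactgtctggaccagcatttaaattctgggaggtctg
Bglap (chr3:88384467-88384716, minus strand): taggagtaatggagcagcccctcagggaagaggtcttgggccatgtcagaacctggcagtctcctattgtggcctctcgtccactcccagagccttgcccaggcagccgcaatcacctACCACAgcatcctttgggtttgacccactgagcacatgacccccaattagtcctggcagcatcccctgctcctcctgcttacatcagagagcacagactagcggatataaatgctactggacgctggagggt
Ibsp (chr5:104299037-104299286, plus strand, no match): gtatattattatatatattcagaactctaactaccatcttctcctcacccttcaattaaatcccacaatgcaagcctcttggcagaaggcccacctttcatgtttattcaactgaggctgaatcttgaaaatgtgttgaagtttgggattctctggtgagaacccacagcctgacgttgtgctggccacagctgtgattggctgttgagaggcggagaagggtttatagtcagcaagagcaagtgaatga

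Counted from -1 at the base before the start, the match began at -118 in Mmp13, at -128 in Spp1 and at -132 in Bglap. A promoter was found for 28 of the 35 members, and in 14 of the 28 at least 1 window held the motif, against 20.9% of 27025 genes. By role it was present in 8 of 14 hypertrophic and bone genes and in 4 of 9 cartilage matrix genes. Matches did not follow the levels, since Ibsp had none, while it was present in Dmp1, which was not separated, and in Mepe, which had no reads. A SOX motif (ACAAAG or ACAATG, either strand) was in 9 of 28 members, against 28.2% of genes, and in 1 of 9 cartilage matrix genes. These letter matches are a description of the windows and were not tested for binding.

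Of the 4 osteocyte and phosphate genes, 1 was higher in E14-Sox2TA/WT beyond counting error and none had an interval beyond 2-fold. Dmp1, the dentin matrix protein of osteocytes and odontoblasts, had 0.592 TPM in E14 and 0.459 TPM in E14-Sox2TA/WT, a ratio of 0.776 (0.488 to 1.23). Phex, the endopeptidase that limits phosphate loss, had 0.598 and 0.846 TPM, 1.42-fold higher (1.08 to 1.86). Sost, which encodes the WNT inhibitor sclerostin of mature osteocytes, had 0.222 and 0.455 TPM (2.05, 0.978 to 4.59) on 11 and 26 reads. Mepe, a phosphoglycoprotein of osteocytes, had 0 reads in both libraries. Phex was the gene past counting error, and all 4 were under 1 TPM, so that a difference of modest size was not detectable at this depth for Sost and Dmp1.

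Dmp1, Ibsp, Mepe and Spp1 lie in 1 stretch of chromosome 5 (GRCm38), from Dmp1 at 104197575 to the end of Spp1 at 104441053. Within it Ibsp and Spp1 were far higher in E14-Sox2TA/WT, Dmp1 was not separated and Mepe was unread. The loci were chosen after values were seen. On chromosome 9 Mmp13 lies beside other matrix metalloproteinases, of which Mmp12 had 0.657 and 8.04 TPM and Mmp3 had 0 and 6.97 TPM. The neighbour Dcun1d5, no metalloproteinase, had 14.5 and 44.2 TPM on 3736 and 4662 reads, so its TPM and read ratios differed.

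On chromosome 13 Omd and Ogn lie inside the gene body of Cenpp, which had 8.24 and 26.8 TPM, and beside Aspn, which had 3.90 and 19.4 TPM. On chromosome 10 Epyc lies beside Kera, which had 0.288 and 1.44 TPM, followed by Lum, a small proteoglycan of fibroblasts, which had 49.5 and 184 TPM. Aspn, Kera and Lum, which encode small leucine-rich proteins as Omd, Ogn and Epyc do, were higher too. At the osteocalcin locus the nearest flanking genes, Paqr6 and Pmf1, had ratios of 0.391 and 1.08. Farther out Tmem79 had a ratio of 2.16 and Slc25a44 one of 0.383, so that other genes of this locus differed too, in both directions. In all, 12 members overlap the gene body of another gene, and whether counting used strand was not given in the sources used here.

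**Figure D3:**
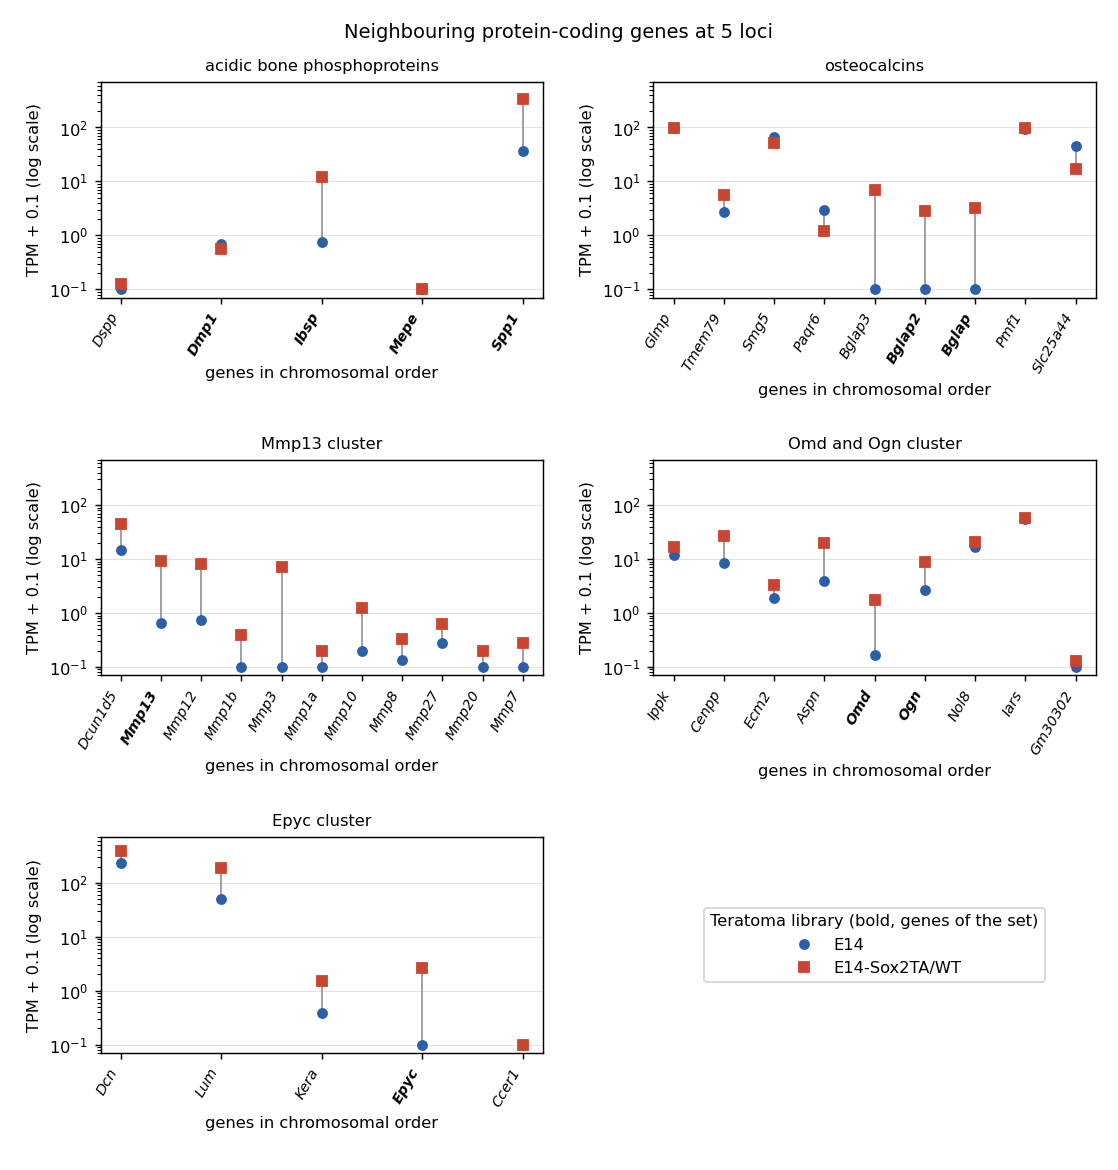
TPM with 0.1 added, on a log axis, in the E14 library (blue circles) and the E14-Sox2TA/WT library (red squares) for protein-coding genes of 5 loci in chromosomal order, with members in bold and a line joining the values of a gene. Ibsp and Spp1 are far apart between the libraries, while Dmp1 and Mepe of the same locus are not.

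The 3 resorption genes were all higher in E14-Sox2TA/WT. Acp5, the tartrate-resistant acid phosphatase of osteoclasts and some macrophages, had 3.52 TPM in E14 and 41.2 TPM in E14-Sox2TA/WT, 11.7-fold higher (9.70 to 14.2). Ctsk, the cathepsin that cleaves bone collagen and is also made by fibroblasts, had 12.3 and 49.0 TPM, 3.99-fold higher (3.61 to 4.42). Mmp9, a gelatinase of osteoclasts, neutrophils and trophoblast, had 2.52 and 10.8 TPM, 4.28-fold higher (3.68 to 4.99). Their sum was 18.3 TPM in E14 and 101 TPM in E14-Sox2TA/WT.

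Levels of marker genes of cells that make these 3 genes also differed between the libraries, not all in 1 direction. Osteoclast genes had 9 of 12 higher and 3 lower (summed TPM 97.1 against 224), and of the genes that control osteoclasts 2 of 3 were higher and 1 lower. Among genes that define osteoclasts, Oscar had 0 reads in E14 and 0.555 TPM in E14-Sox2TA/WT, Dcstamp had 0.125 and 0.780 TPM, and Calcr had 2.01 and 0.593 TPM. These levels were low in both libraries, and Calcr was higher in E14. Tnfsf11, which encodes the osteoclast differentiation ligand RANKL, had 0 and 64 reads, at 1.06 TPM in E14-Sox2TA/WT. Macrophage genes had 11 of 12 higher and 1 lower (summed TPM 1078 against 1809), and neutrophil genes had 5 of 8 higher and 0 lower (9.07 against 27.9). Relative to Csf1r, the receptor of macrophages and osteoclasts, Acp5 was 16.6% in E14 and 154% in E14-Sox2TA/WT, Ctsk was 57.8% and 184%, and Mmp9 was 11.8% and 40.3%. Car2 and Atp6v0d2, which serve acid secretion by osteoclasts, were 4.35-fold and 5.77-fold higher. On the same list Tcirg1 was 1.93-fold higher, while Clcn7 and Ostm1 were lower, at ratios of 0.883 and 0.764. Car2 alone made up 33.9% of the summed osteoclast genes in E14 and 63.6% in E14-Sox2TA/WT. The resorption genes thus differed by more than Csf1r did, as did some osteoclast genes. Csf1r itself was 1.26-fold higher, while ratios of the other macrophage genes ran from 0.653 for Cx3cr1 to 2.46 for Ptprc. The size of these percents therefore depended on the reference gene, and the part of the other cell types was not tested.

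**Figure D4:**
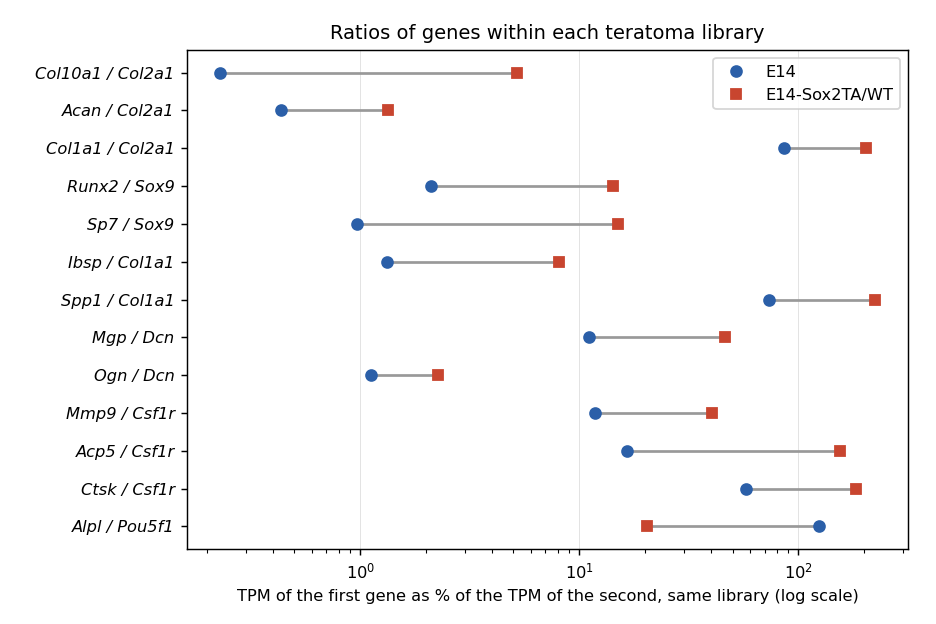
Level of selected genes as a percent of a reference gene in the same library, on a log axis, for E14 and E14-Sox2TA/WT. Col10a1 is at 0.229% and 5.17% of Col2a1, and Alpl at 124% and 20.4% of Pou5f1.

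Set side by side, hypertrophic and bone genes had 14 of 17 higher and 0 lower beyond counting error. Cartilage matrix genes had 7 of 11 higher and 1 lower. By that low bar 41.0% of the 23711 genes with at least 10 reads were higher and 40.1% were lower. Summed levels were 82.6 and 487 TPM for hypertrophic and bone genes, a 5.90-fold difference, against 1.33-fold for cartilage matrix, or 2.03-fold without Matn4. Spp1 made up 44.5% of the bone sum in E14 and 69.7% in E14-Sox2TA/WT, and without it the sums were 45.9 and 148 TPM, 3.22-fold apart. The direction was thus the same without Spp1, and the size was smaller. Alpl, also a marker of pluripotent stem cells, made up 51.4% of the sum without Spp1 in E14 and 42.1% in E14-Sox2TA/WT. The part of other tissues in these sums was not tested.

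The size of the contrast depended on the scale and on the genes that entered. On the log2 scale with 1 added to each TPM, which understates the difference of low genes, the median was 1.91 for the 11 hypertrophic and bone genes at 1 TPM or more and 0.62 for the cartilage matrix genes at that level, beside -0.06 over all genes at that level. The difference of the medians was 1.29. This filter asks for 1 TPM in either library. Mmp13, Runx2, Sp7, Ibsp, Bglap, Bglap2 and Ifitm5 passed it only through E14-Sox2TA/WT, as did Acan, Matn3, Chad and Epyc. The filter thus favoured genes that were higher in that library. Over all 17 and 11 genes the medians were 1.31 and 0.62, and they differed by 0.69. With plain ratios of the same genes and zeros at their bound, the medians were 2.73 and 0.98 in log2 and differed by 1.75. With plain ratios of all genes with at least 10 reads, which is another set of genes, the medians were 5.23-fold and 3.99-fold, beside 1.01-fold over all genes, and differed by 0.39 in log2. The hypertrophic and bone median was thus the higher under each of these choices, and the size of the gap depended on which genes entered. No test of the contrast was possible with 1 library per group.

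**Figure D5:**
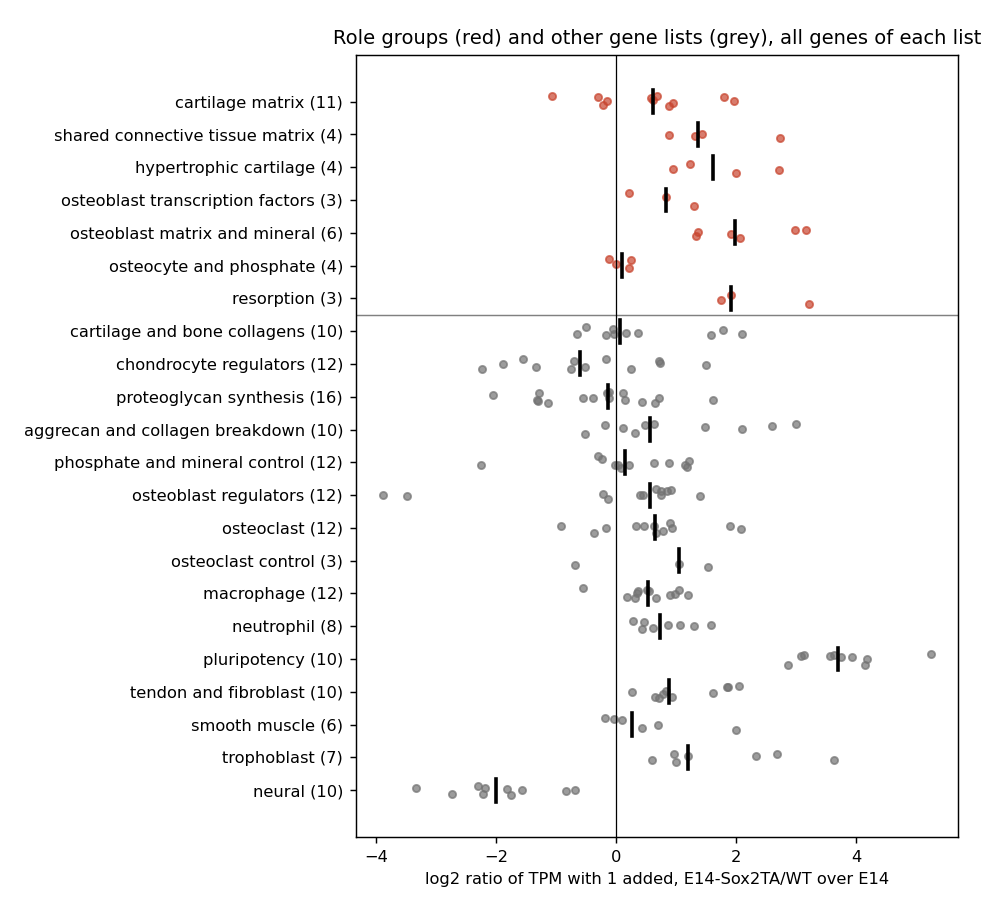
Log2 ratio of TPM with 1 added, E14-Sox2TA/WT over E14, for each gene of the role groups and of the comparison lists, with the median of each. Osteoblast matrix and resorption genes lie above 0 throughout, cartilage matrix genes lie on both sides of 0, and neural genes lie below 0.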

How the data were processed

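RNA of teratoma was sequenced in 1 E14 and 1 E14-Sox2TA/WT library. The authors deposited 1 gene table (mm10) with read counts, FPKM and TPM, in which FPKM and TPM are scaled per transcript length and library. The submitters' processing notes name bcl2fastq 2.20.0, Trimmomatic, HISAT2 2.1.0 and StringTie 2.1.3b. The labels give a teratoma tissue, while their growth protocol describes stem cell culture. Deposited TPM was compared as a ratio, or on log2 after adding 1, and counts gave Clopper-Pearson intervals (95%) and a floor of 3 reads (Python 3.11.15, scipy 1.17.1). Whether PCR duplicates were removed was not given in the sources used here, and intervals and floors cover counting error only. Genes with at least 1 TPM in a library entered list medians, and genes with at least 10 TPM entered calls at 2-fold. Coordinates were matched by gene ID for 45675 genes, and promoters came from RefSeq (GRCm38.p6). TMM factors were from edgeR 4.0.16. The members and lists were chosen with earlier results of these data known, and every member is named. From each other list, genes among the 2 most abundant and the 2 of largest absolute log2 ratio could be named, though not all were, and Sox2, Sox9, Col2a1 and Col10a1 in any case. Further genes were chosen after their values were seen. Scripts were tested on simulated data.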

Additional observations from a re-analysis of the deposited data

How the results depend on the processing

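No paired analysis was possible because each group had 1 library, and for the same reason no replicate could be left out. Medians below are log2 ratios for cartilage matrix, hypertrophic and bone genes, and their difference, which were 0.62, 1.91 and 1.29. They became 0.92, 2.62 and 1.70 with 0.1 added in place of 1, 0.87, 1.42 and 0.56 against genes of like transcript length, 0.98, 2.73 and 1.75 with plain folds of the same genes and zeros at their bound, and 2.0, 2.39 and 0.39 with such folds of the genes with at least 10 reads, both chosen after seeing the data. With 5 added the medians were 0.19 and 1.03. The hypertrophic and bone median was 1.36 with deposited FPKM, 1.98 with library totals, 1.94 with TMM factors, 1.94 with median-of-ratios factors, 1.31 without a TPM filter, 2.18 at 10 TPM or more, where no cartilage matrix gene was left, and 1.91 with resorption genes joined. With the shared matrix genes joined the cartilage median was 0.88. Set against the median of each gene's own chromosome, also chosen after seeing the data, the medians were 0.67 and 1.89, and their difference was 1.22. By that setting Sp7 went from 1.31 to 0.95 and Comp from 0.59 to 1.07. The median of all genes was -0.06, and 0.11 with FPKM and 0.12 with library totals. Calls rose from 8 higher to 22 at 1 TPM, 26 with no filter and 24 with the counting-interval rule, with 1 lower in each, and at 3-fold 6 were higher. By the counting-interval rule 18.0% of all genes with at least 10 reads were higher and 13.6% lower. The share of all genes was not computed at the other settings, so the rise in calls is not a result about the members. Of 277 alternative values of single members 160 lay within counting error, 117 lay beyond it and 0 called members reversed. A change of the added value shifts the log2 ratios of low genes by arithmetic alone. The cause of the other shifts was not tested. Depth limits the members at or below 50 reads in E14, which were 19 of 35.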

Other observations

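Enzymes of proteoglycan synthesis, which build the sugar chains that aggrecan carries, had 9 of 16 lower and 5 higher in the E14-Sox2TA/WT library beyond counting error, by a bar that 40.1% and 41.0% of all genes passed in those directions. Their median log2 ratio was -0.14. Of the genes whose enzymes make the sulfate donor, Papss1 had 96.6 TPM in E14 and 43.5 TPM in E14-Sox2TA/WT. Papss2 went the other way, with 1.52 and 3.12 TPM, 2.06-fold higher (1.68 to 2.54). Xylt1, which starts the chains, had 6.37 and 0.773 TPM, 8.23-fold lower. Has2, which makes hyaluronan, had 6.54 and 22.0 TPM, 3.37-fold higher. Acan was thus higher in the library in which Papss1 and Xylt1 were lower and Papss2 and Has2 higher.

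Genes of aggrecan and collagen breakdown had 8 of 10 higher and 2 lower. Timp1, an inhibitor of metalloproteinases, had 9.98 and 65.3 TPM, 6.54-fold higher, while its relative Timp2 had 81.6 and 56.4 TPM. Genes of phosphate and mineral control had 7 of 12 higher and 3 lower. Vdr, the vitamin D receptor, had 0.321 and 2.06 TPM, 6.41-fold higher, and Smpd3, a sphingomyelinase needed for bone mineralisation and also made in brain, had 38.2 and 7.22 TPM, 5.30-fold lower. Collagens of cartilage and bone had 5 of 10 higher and 3 lower, with Col1a1, the main collagen of bone and fibrous tissue, at 49.9 and 152 TPM.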
